A study of Mus musculus with 12 samples.

Results

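The 34 genes described here encode regulators, motors and structural parts of motile cilia, the beating hair-like extensions of ciliated epithelial cells, as found in the middle ear. They were taken by gene symbol from a list of ciliated cell genes and not by a threshold on the measured values, although earlier results of these data were known when the list was set, and all 34 were found among the 34538 Ensembl genes of each library. Of these, 32 reached at least 1 FPKM (fragments scaled to exon length and library depth) in at least 4 of the 12 libraries and entered the tests, together with 15854 genes in all. Dnah2 and Spag17 did not pass that filter, and none of the 32 passed it through libraries of 1 group only. Cochlear RNA was taken from wild type C57BL/6J mice aged 12 months, and each of the 3 groups had 4 libraries; the cochlea is the coiled organ that turns sound into nerve signals. Control mice drank plain water, coffee mice drank water with 0.1% black coffee, and GTE mice drank water with 0.006% green tea extract (GTE), in each case from the age of 3 months. The labels give no other allele or agent. Whether the replicates of a group were separate animals is not stated, so that p-values capture only the variation among these libraries, some of which may be technical.

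A motile cilium is built around an axoneme, a ring of doublet microtubules around a central pair. Dynein arms on each doublet walk along the neighbouring doublet, nexin links turn that sliding into bending, and radial spokes and the central apparatus time the strokes. Foxj1, a forkhead transcription factor, switches on the genes of this machinery together with factors of the RFX family. In the ear, motile cilia are known from the mucosa of the middle ear cavity and the Eustachian tube, where they carry mucus away. Adult cochlear hair cells bear stereocilia, which are bundles of actin and not cilia.

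Depth, read from the steps of the FPKM values, was between 20526024 and 24835934 fragments per library. At these depths 3 fragments on a gene of 2000 bases are worth 0.0604 to 0.0731 FPKM, and the precision this gives covers counting error only. Over all libraries and members, the lowest recovered count was 12 fragments, for Tekt2. All 13 hair cell genes listed for a check of the tissue passed the filter, with a summed level between 75.1 and 138.7 FPKM per library. Transcripts of marrow cells were abundant in every library, with a summed level of 12 myeloid genes between 10405 and 32368 FPKM. Control 3 stood apart from the other controls by high levels of epithelial and ciliated cell genes, so the main counts of members are also given without it.

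Promoters were available for 30 of the 34 genes, 35 windows in all, from 250 bases before to 50 bases after the annotated start (RefSeq, build GRCm38.p6). Those of Foxj1, Rsph1, Rsph4a and Tppp3 were not used here. The letters GTTGCC, a half-site known to be bound by RFX factors, or their reverse complement GGCAAC stood in 16 of the 35 windows (45.7%), which belong to 15 genes. Among all 32851 mouse promoter windows of the same length the share was 12.5%. Several spellings of these motifs were tried before the letters were settled, and windows of 1 gene can overlap and count the same bases again, as for Tekt2. In the 16 windows there were 23 matches, of which 17 lay within 100 bases of the start. The promoters of the 3 most highly expressed genes with a match are printed here, 5′ to 3′ along the gene, to show where the half-site stood in them, with each forward GTTGCC in capitals.
Fam183b: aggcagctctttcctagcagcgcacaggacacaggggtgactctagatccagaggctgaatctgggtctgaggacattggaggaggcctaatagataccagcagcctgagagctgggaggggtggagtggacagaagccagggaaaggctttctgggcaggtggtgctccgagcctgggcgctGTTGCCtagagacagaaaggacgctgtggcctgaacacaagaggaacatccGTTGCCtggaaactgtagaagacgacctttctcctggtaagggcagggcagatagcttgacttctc
Dynlrb2: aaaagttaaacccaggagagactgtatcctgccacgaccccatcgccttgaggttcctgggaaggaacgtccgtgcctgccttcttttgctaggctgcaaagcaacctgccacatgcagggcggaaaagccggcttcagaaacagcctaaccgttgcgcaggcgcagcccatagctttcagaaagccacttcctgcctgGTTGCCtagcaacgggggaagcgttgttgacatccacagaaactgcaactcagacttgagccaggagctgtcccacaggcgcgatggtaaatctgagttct
Ccdc153: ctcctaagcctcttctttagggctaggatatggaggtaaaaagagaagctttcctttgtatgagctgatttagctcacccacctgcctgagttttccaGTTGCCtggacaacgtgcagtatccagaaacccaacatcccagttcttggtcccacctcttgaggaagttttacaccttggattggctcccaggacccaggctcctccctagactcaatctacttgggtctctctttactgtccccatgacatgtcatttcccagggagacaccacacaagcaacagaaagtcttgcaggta

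The Fam183b window (chr11:58801911-58802210, minus strand) held 2 half-sites, with first bases at positions -67 and -16 from the start. In the Dynlrb2 window (chr8:116504765-116505064, plus strand) the half-site began at -51, and in the Ccdc153 window (chr9:44240427-44240726, plus strand) at -152. A second RFX half-site spelling, GTTACC or its reverse complement GGTAAC, stood in 9 of the 35 windows (25.7%), against 7.21% of all windows. A paired RFX site was searched only in a strict spelling, 2 facing half-sites with a gap of exactly 2 bases. That spelling stood in 0 of the 35 and in 0.451% of all windows. Other gaps and looser half-site spellings were not counted, so this result does not show that the members lack paired sites. The forkhead letters TGTTTAC (reverse complement GTAAACA) were found in 2 windows, those of Cfap43 and Sntn (5.71%, against 3.65% of all). CCAAT on either strand was as frequent among the members' windows (37.1%) as among all (37.4%), and TATAAA on either strand was found in 5.71% against 13.6%. The median GC content was 53.7% in the members' windows and 52.7% in all. These are matches of letters, not measured binding, and a window without them says nothing of the factor. The 15 genes with GTTGCC had a median mean level of 4.33 FPKM and the 15 without it 2.24 FPKM. Their median correlation with the other tested members across libraries, described below, was 0.944 with it and 0.938 without it. Neither difference was tested, and the genes whose promoters were not used, Tppp3 and Foxj1 among them, are in neither set.

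Levels of the members ran over a wide range. Tppp3, which encodes a tubulin-binding protein also known from cells without motile cilia, was the highest, with a mean of 77.6 FPKM over the 12 libraries, and Spag17 the lowest, with 0.358 FPKM. Between these lay Dynlrb2 (14.7 FPKM), Foxj1 (12.9), Ccdc153 (11.7), Tmem212 (11.7), Rsph1 (10.3) and Fam183b (10.2), and the means of the other 26 were under 10 FPKM. Neighbours in this order from Dynlrb2 to Fam183b differed by less than the SD between libraries of a group. FPKM divides by gene length. Whether this makes the levels of long genes such as the dynein heavy chains comparable with those of short genes was not tested.

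**Figure D1:**
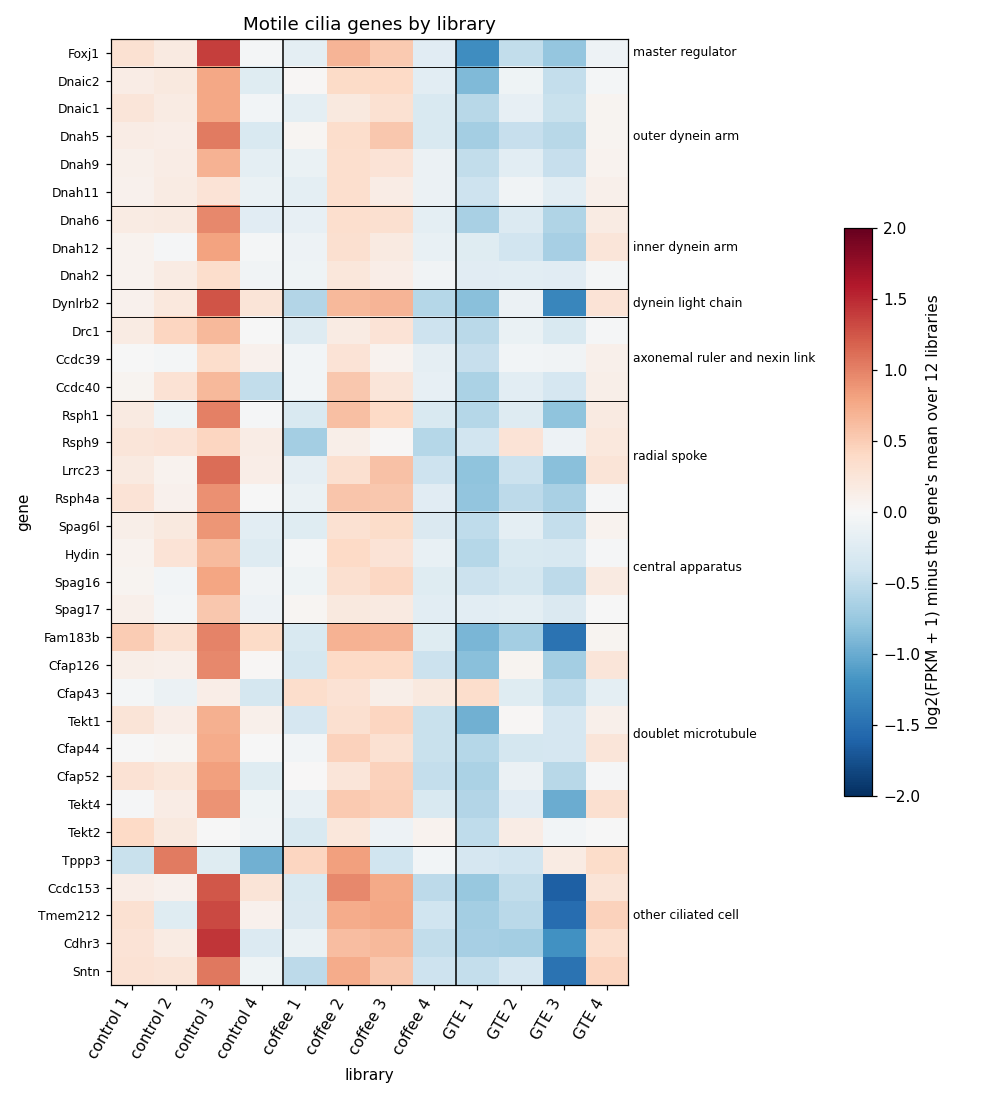
Each row is a motile cilia gene, grouped by role, and each column a library; colour gives log2(FPKM + 1) minus the gene's mean over the 12 libraries. Most rows share 1 pattern, with control 3 highest for 30 of the 34 genes and GTE 1 or GTE 3 lowest for 32. Tppp3, Cfap43 and Tekt2 stand apart from it. Rsph9 does so less once group means are removed (correlation 0.812 with the other members).

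The genes varied together from library to library. The mean log2(FPKM + 1) of the 32 tested members was highest in control 3 (3.06), followed by coffee 2 (2.71) and coffee 3 (2.63). It was lowest in GTE 3 (1.63) and GTE 1 (1.67), with coffee 4 (1.98), GTE 2 (2.01) and coffee 1 (2.10) next above them. Control 1, control 2, control 4 and GTE 4 lay between, from 2.18 to 2.43, and the groups overlapped. Set against the median of the control libraries for each gene, the median ratio over the 34 members was 1.88 in control 3, 0.437 in GTE 1 and 0.454 in GTE 3. In GTE 4 it was 0.961, so that this library lay with the controls, and in GTE 2 it was 0.671. Among coffee libraries the ratio was 1.30 in coffee 2 and 1.22 in coffee 3, against 0.727 in coffee 1 and 0.642 in coffee 4.

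Over the 496 pairs of tested members, the median Pearson correlation of log2(FPKM + 1) across the 12 libraries was 0.884, from -0.487 to 0.995. These correlations are descriptions: the points share their libraries, their depth and their dissection. Of the 34 genes, 27 had a correlation above 0.9 with the mean of the other tested members, and with the group means removed the correlation of Foxj1 was still 0.951. The lowest were Tppp3 (0.11), Cfap43 (0.22), Tekt2 (0.43) and Rsph9 (0.58). Leaving out control 3 gave 0.236 for Tppp3, 0.157 for Cfap43, 0.532 for Tekt2 and 0.475 for Rsph9. Over all 12 libraries with the group means removed, Rsph9 rose to 0.812. By that measure Tppp3 was at 0.154, Cfap43 at 0.130 and Tekt2 at 0.269. Tekt2 had few fragments, 12 to 64 per library. It also shares 20.8% of its exon bases with the gene Gm12945 on the opposite strand. The sources used here do not give the strand setting of the counting. The part of either in the low correlation of Tekt2 was not tested. The members varied more between libraries of a group than other genes did, with a median within-group SD of 0.387 on the log2 scale, against 0.187 for all 15854 tested genes. The ratio of the highest to the lowest library reached 12.2 for Sntn, 11.1 for Cdhr3 and 9.79 for Ccdc153, and was 2.02 for Cfap43.

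Among the 15854 tested genes, the 32 tested members included, 155 (0.978%) had a correlation above 0.9 with the mean of the members. In this count each member is itself part of that mean. The 12 most alike outside the list, by that correlation over 12 libraries, were Odf3b (0.991), Nme9 (0.989), Ubxn10 (0.988), Iqca (0.988), Drc3 (0.986), Ccdc146 (0.984), Lrrc36 (0.983), Ccdc162 (0.982), Rsph10b (0.982), Fhad1 (0.981), Dnali1 (0.981) and Vwa3a (0.980). Odf3b ranged from 3.76 FPKM in GTE 1 to 13.2 FPKM in control 3, and Nme9 from 1.49 FPKM in GTE 3 to 10.1 FPKM in control 3. Of these 12 genes, 5 stood in a separate list of motile cilia genes. Of the 37 tested genes of that list, 21 (56.8%) had a correlation above 0.9, with a median of 0.920. Factors that dock dynein arms or assemble them in the cytoplasm had a median of 0.863 (13 genes), and genes of primary cilia and of transport within cilia, which non-motile cilia use as well, had 0.440 (20 genes). The secretory epithelium list gave 0.721 (13 genes), general epithelial genes 0.534 (7), choroid plexus genes 0.386 (6), hair cell genes 0.311 (13) and myeloid marrow genes -0.240 (12).

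**Figure D2:**
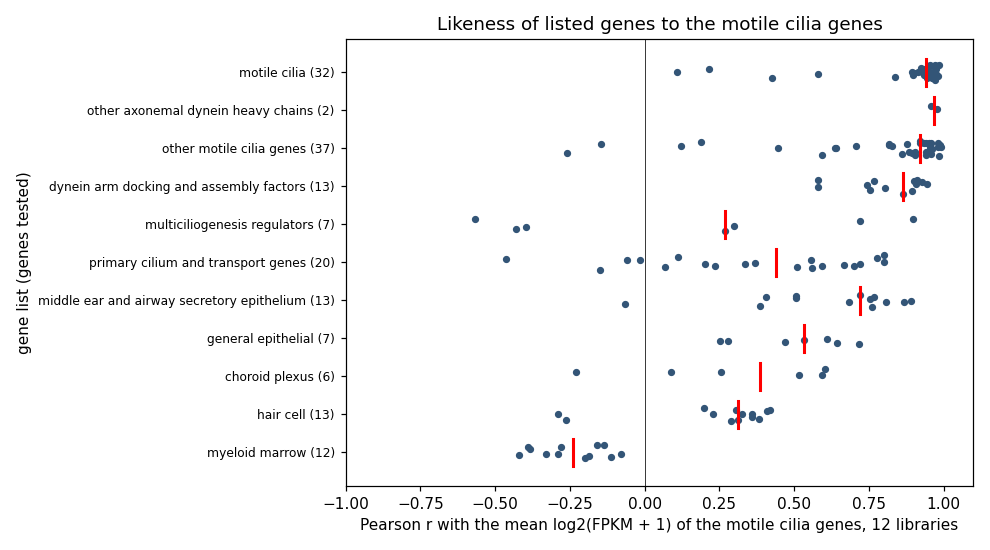
Each point is a tested gene, placed by the Pearson correlation of its log2(FPKM + 1) with the mean of the motile cilia genes across 12 libraries (members against the other members), and red bars are list medians. Medians were above 0.86 in the 4 lists of motile cilia genes, docking and assembly factors and dynein heavy chains, and 0.721 or lower in the other 7.

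The comparison of GTE with control asked whether long-term green tea extract went with other levels of these genes. The members were lower in GTE, 31 of the 32 tested, with a median log2 difference of -0.59 against 0.0068 for all tested genes, but none passed the test. Here and in the other comparisons, higher and lower refer to a group's mean log2(FPKM + 1). The largest differences were -1.30 for Fam183b, a doublet protein, -1.11 for Foxj1, the regulator of the programme, and -1.09 for Ccdc153. In limma with Benjamini-Hochberg adjustment over 15854 genes, 0 of the 32 members had an adjusted p under 0.05, and the lowest was 0.505. Among all tested genes 0.00631% were called lower and 0% higher. At an unadjusted p under 0.05, 16 of the 32 were lower and 0 higher, whereas 4.3% of all tested genes were lower and 4.14% higher. A fit with voom on recovered fragments called 0 members and had 19 at an unadjusted p under 0.05. Here and in the other comparisons, the shares of all tested genes at that threshold belong to the main fit. They were not counted for voom, for fits without single libraries or for the other alternatives. Since the members vary together, these 16 are not independent of each other. The 4 GTE libraries lay below all 4 control libraries for Fam183b, Foxj1, Rsph4a and Drc1 and above them for none. Among all tested genes, 2.95% were separated in the lower and 2.88% in the higher direction. In this bulk tissue, fewer ciliated cells and less RNA per ciliated cell cannot be told apart.

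Foxj1 (chromosome 11 of mm10, 116330704 to 116335399, minus strand) stood at 14.4, 13.2, 31.4 and 11.2 FPKM in controls 1 to 4, 9.86, 19.0, 16.9 and 9.69 in coffee 1 to 4 and 4.25, 7.85, 6.32 and 10.7 in GTE 1 to 4. Every GTE value lay below every control value, while coffee overlapped both, and control 3 was far above the rest. The group means were 17.5 ± 9.34 FPKM in control, 13.9 ± 4.80 in coffee and 7.27 ± 2.70 in GTE (SD, n = 4 libraries). On the log2(FPKM + 1) scale, which understates changes of low genes, GTE minus control was -1.11 ± 0.34 (SE). That difference did not pass (limma with Benjamini-Hochberg adjustment, adjusted p = 0.543), and its exact permutation p was 0.0286, two-sided and the smallest that 4 libraries against 4 can give.

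Dynein genes were lower in GTE as well, and none passed the test. Dynlrb2, a light chain of the roadblock family of dyneins, read 13.9, 15.2, 32.5 and 15.8 FPKM in the controls, 8.43, 21.1, 21.7 and 8.50 in coffee and 6.87, 12.0, 4.69 and 16.0 in GTE. GTE 4 lay within the control values and GTE 3 was lowest, so the groups overlapped. Its GTE minus control difference was -0.95 ± 0.42 (SE, limma with Benjamini-Hochberg adjustment, adjusted p = 0.574). Outer arm genes encode the motors that set beat frequency. They were lower in GTE for 5 of 5 members, where 48.4% of all tested genes were lower. At an unadjusted p under 0.05 there were 4, where 4.3% of all tested genes were lower. These 4 were the heavy chains Dnah5 (-0.67) and Dnah9 (-0.46) and the intermediate chains Dnaic1 (-0.56) and Dnaic2 (-0.59). They belong to the 16 members counted above, as do the members at that threshold named by role below, and are not independent of them. The remaining heavy chain, Dnah11, was at -0.25. The mean level of Dnah5 was 2.56 ± 1.53 FPKM in control, 2.21 ± 0.798 in coffee and 1.15 ± 0.521 in GTE (SD, n = 4). Inner arm heavy chains, which shape the bend, gave differences of -0.60 for Dnah6, at an unadjusted p under 0.05, and -0.46 for Dnah12. Dnah2, not tested, ranged from 0.531 to 1.04 FPKM in control and from 0.364 to 0.568 FPKM in GTE.

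Radial spoke genes were lower in GTE for 4 of 4 members, with 2 at an unadjusted p under 0.05. Among all tested genes 4.3% were lower at that threshold. Rsph4a, a protein of the spoke head (chromosome 10 of mm10, 33905111 to 33916021, plus strand), read 3.30, 2.75, 5.65 and 2.51 FPKM in control, 2.24, 4.21, 4.14 and 2.02 in coffee and 1.06, 1.46, 1.26 and 2.47 in GTE. The highest GTE value, 2.47 FPKM, lay just under the lowest control value, 2.51 FPKM, so these groups were separated by a narrow gap. GTE minus control was -0.81 ± 0.25 (SE; limma with Benjamini-Hochberg adjustment, adjusted p = 0.543; exact permutation p = 0.0286, two-sided). Rsph1, of the same spoke head, read 11.1, 9.04, 20.4 and 9.45 FPKM in control, 7.64, 15.1, 13.1 and 7.62 in coffee and 6.15, 7.88, 5.08 and 11.1 in GTE. Its groups overlapped through GTE 4, and the difference was -0.63 ± 0.30. Lrrc23, a spoke protein, read 6.45, 5.87, 13.3 and 6.20 FPKM in control, 4.81, 7.19, 8.86 and 3.95 in coffee and 2.75, 3.89, 2.66 and 6.82 in GTE, and again GTE 4 overlapped the controls (difference -0.83 ± 0.31). Rsph9, the fourth, read 11.0, 11.3, 12.8 and 10.4 FPKM in control, 5.42, 10.1, 9.44 and 5.90 in coffee and 6.86, 11.4, 8.55 and 10.9 in GTE. For Rsph9 it was coffee, not GTE, that lay below the controls without overlap.

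The rulers Ccdc39 and Ccdc40, which set the spacing of spokes and inner arms along the doublet, differed by -0.22 and -0.39 between GTE and control. Ccdc39 shares 16.9% of its exon bases with Ttc14 on the opposite strand. Drc1, of the nexin link, had group means of 6.17 ± 1.44 FPKM in control, 4.59 ± 1.26 in coffee and 3.85 ± 0.741 in GTE (SD, n = 4), and the highest GTE library, at 4.63 FPKM, was just below the lowest control, at 4.66 FPKM. Its difference was -0.55 ± 0.19 (SE, limma with Benjamini-Hochberg adjustment, adjusted p = 0.552). Genes of the central apparatus, the pair of inner microtubules with their projections, were lower in GTE for 3 of 3 tested members: Hydin (-0.48, at an unadjusted p under 0.05), Spag6l (-0.52) and Spag16 (-0.46). Spag17, not tested, was between 0.102 and 0.949 FPKM in all libraries. Of the exon bases of Spag17, 9.66% also belong to Wdr3 on the opposite strand, the larger overlap of the 2 genes that share its exon bases.

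Proteins bound in or to the doublets held the member with the largest difference. Fam183b, known as a protein inside the doublet (chromosome 11 of mm10, 58792797 to 58801960, minus strand), read 13.2, 11.4, 18.8 and 12.1 FPKM in control, 7.12, 15.1, 15.1 and 7.46 in coffee and 4.31, 5.23, 2.61 and 9.45 in GTE. All 4 GTE libraries lay below all 4 controls, and the coffee libraries fell into a pair above and a pair below the lowest control. GTE minus control was -1.30 ± 0.33 (SE; limma with Benjamini-Hochberg adjustment, adjusted p = 0.505; exact permutation p = 0.0286, two-sided). Cfap126, another doublet protein, read 6.33, 6.29, 12.2 and 5.91 FPKM in control, 4.31, 7.97, 7.90 and 4.02 in coffee and 2.78, 6.07, 3.21 and 6.98 in GTE, with overlap through GTE 2 and GTE 4 (difference -0.61 ± 0.31). The tektins, filament proteins of the doublet, differed by -0.59 for Tekt1, -0.61 for Tekt4 and -0.24 for Tekt2, and Cfap52, which shares 8.36% of its exon bases with 9130017K11Rik on the opposite strand, by -0.60. Of these 4, Tekt1 and Cfap52 had an unadjusted p under 0.05. Cfap43 and Cfap44 form a tether between an inner arm motor and the doublet, yet their values did not run together. Cfap44 followed the other members (-0.44, correlation 0.94), whereas Cfap43 read 5.57, 5.24, 6.46 and 4.32 FPKM in control, 7.66, 7.26, 6.36 and 6.77 in coffee and 7.65, 4.72, 3.79 and 4.90 in GTE. The GTE values of Cfap43 spanned the controls and 3 of the 4 coffee values lay above all of them. The difference of Cfap43 was -0.055 ± 0.16 for GTE minus control. The gene length behind its FPKM was read as 9955 bases, against 7059 exon bases in the annotation used here (GENCODE M21). For Cfap44 these lengths were 8493 and 8405 bases. Whether the Cfap43 values include exons outside that annotation was not tested.

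Among the other ciliated cell genes, the coiled-coil protein gene Ccdc153 read 11.3, 10.9, 25.5 and 12.3 FPKM in control, 8.06, 20.6, 17.9 and 6.72 in coffee and 5.63, 6.92, 2.61 and 12.3 in GTE. Tmem212, a membrane protein gene, read 12.9, 8.51, 27.0 and 10.9 FPKM in control, 8.12, 17.7, 18.1 and 7.47 in coffee and 5.99, 6.69, 2.92 and 14.4 in GTE. For both, GTE 4 lay within the control values and GTE 3 was the lowest library of all 12. Their differences were -1.09 ± 0.44 and -0.94 ± 0.45 (SE, limma with Benjamini-Hochberg adjustment, adjusted p = 0.574 for both). Cdhr3, a cadherin-related protein that in human airway serves as a receptor of rhinovirus C, differed by -0.96 and Sntn, a protein of the ciliary tip, by -0.84. Tppp3 read 52.6, 149, 60.3 and 36.2 FPKM in control, 97.5, 128, 54.5 and 68.9 in coffee and 56.4, 54.9, 80.7 and 92.5 in GTE, and no group stood apart (difference 0.10 ± 0.40). It was the single tested member with a higher mean log2(FPKM + 1) in GTE than in control, while its mean FPKM was 74.6 ± 50.8 in control and 71.1 ± 18.5 in GTE (SD, n = 4). The direction on the log2 scale turned to -0.17 without control 4 and to -0.033 without GTE 4.

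**Figure D3:**
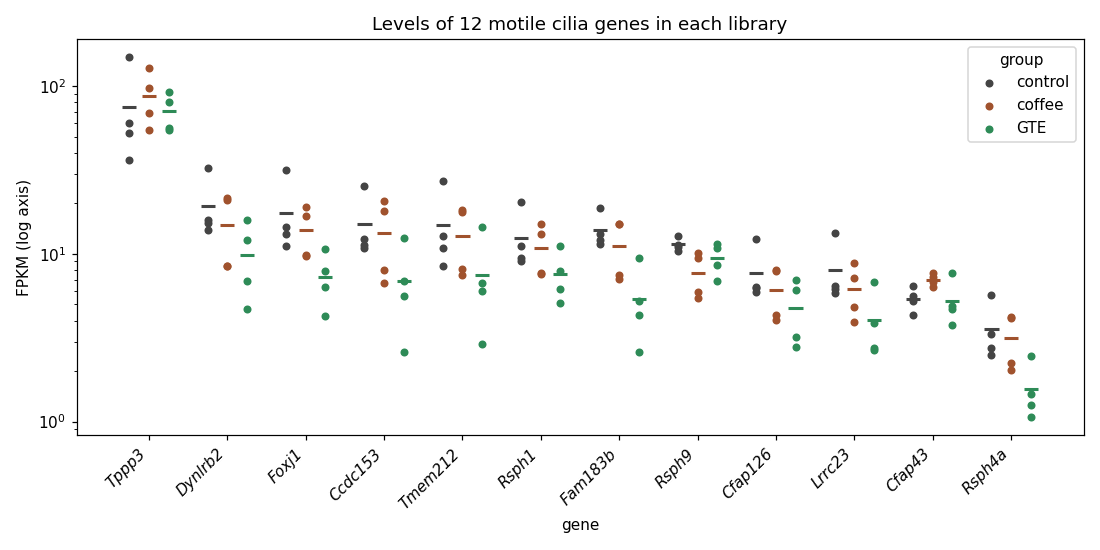
FPKM (log axis) of 12 motile cilia genes in each of the 12 libraries; points are libraries and bars are arithmetic means of 4. GTE lies below control without overlap for Foxj1, Fam183b and Rsph4a, and coffee lies below control without overlap for Rsph9.

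The count of 16 members rested on few libraries. It was 4 without control 3, 4 without GTE 1 and 4 without GTE 3, 10 without control 1 or control 2, and 25 without GTE 4. It was 6 without coffee 1, coffee 4 and GTE 1, and 4 without coffee 1, coffee 3 and GTE 1. The number of members lower in GTE was 30 of 32 without control 3. The median log2 difference over these 12 fits, each without 1 library, stayed between -0.70 and -0.39.

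The comparison of coffee with control asked the same of black coffee. The members were slightly lower in coffee, 29 of the 32 tested, with a median log2 difference of -0.17 against 0.010 for all tested genes, and none passed the test. Without control 3, 11 of the 32 were lower, and without coffee 4, 19. In limma with Benjamini-Hochberg adjustment 0 of the 32 had an adjusted p under 0.05, and the lowest was 0.216, where 0.00631% of all tested genes were called lower and 0% higher. At an unadjusted p under 0.05 there was 1 member, Rsph9, which was lower (3.13% of the members; 2 members without control 3), whereas 10.8% of all tested genes were lower and 9.25% higher. The voom fit called 0 and likewise had 1 at that threshold. Rsph9 was also the single member whose coffee values all lay below the control values, and no member was separated upward, where 6.89% of all tested genes were separated downward and 5.93% upward. Rsph9, a radial spoke head protein (chromosome 17 of mm10, 46122035 to 46144216, minus strand), had means of 11.4 ± 1.02 FPKM in control, 7.72 ± 2.40 in coffee and 9.42 ± 2.12 in GTE (SD, n = 4). Coffee minus control was -0.55 ± 0.20 (SE; limma with Benjamini-Hochberg adjustment, adjusted p = 0.216; exact permutation p = 0.0286, two-sided). With libraries weighted by their spread this difference was -0.64 and passed (adjusted p = 0.0339, limma with Benjamini-Hochberg adjustment), in a fit that called 2437 genes in all.

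Cfap43 was higher in coffee by 0.33 ± 0.16 (SE), with an exact permutation p of 0.0571, two-sided, and an adjusted p of 0.271 in limma with Benjamini-Hochberg adjustment. Tppp3 (0.35) and Ccdc40 (0.023) were the other members with a higher mean log2(FPKM + 1) in coffee; the mean FPKM of Ccdc40 was 2.54 in control and 2.52 in coffee. Differences of the other 29 ran from -0.55 to -0.056. Foxj1 differed by -0.26 ± 0.34 and Fam183b by -0.34 ± 0.33. The coffee group was split, with coffee 2 and coffee 3 above the control median for most members and coffee 1 and coffee 4 below it: 4 of 34 members lay below the control median in coffee 2 and 4 in coffee 3, but 31 in coffee 1 and 32 in coffee 4. Of the fits without 1 library, the direction of the median turned in that without control 3 (0.052). It was -0.035 without coffee 4, -0.074 without coffee 1, and between -0.28 and -0.27 without coffee 2, coffee 3 or control 4. Without coffee 1, coffee 4 and GTE 1, the 3 libraries with the highest mean log2(FPKM + 1) of the marrow genes, it was 0.15, and 4 of the 32 members were lower in coffee. Without coffee 1, coffee 3 and GTE 1, the 3 with the highest summed marrow level, it was -0.20, and 27 of the 32 were lower, so the result of leaving out marrow-rich libraries depended on the measure of marrow transcripts.

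GTE set directly against coffee gave the same direction as against control. Of the 32 tested members 31 were lower in GTE, with a median log2 difference of -0.40 against -0.0019 for all tested genes. With limma and Benjamini-Hochberg adjustment 0 were called, the lowest adjusted p was 0.718, and 0% of all tested genes were called in either direction. Fam183b (-0.96 ± 0.33), Rsph4a (-0.68 ± 0.25), Foxj1 (-0.85 ± 0.34) and Cfap43 (-0.39 ± 0.16) had an unadjusted p under 0.05 and were lower, which is 12.5% of the members against 2.23% of all tested genes, where 4.52% were higher. The voom fit called 0 and had 5 at that threshold. For none of the 34 genes did the GTE and coffee values lie apart without overlap, against 0.839% of all tested genes in the lower and 1.7% in the higher direction. The exact permutation p was 0.0857 for Fam183b, Rsph4a and Foxj1 and 0.114 for Cfap43, two-sided. Rsph9 was the member that was higher in GTE than in coffee (0.28 ± 0.20). The count of 4 was 14 without GTE 4, 8 without coffee 4, 7 without control 3 and 6 without control 4, but 1 without coffee 2 or GTE 3 and 2 without coffee 3 or GTE 1. The 2 comparisons with control share the control libraries, and both with GTE share the GTE libraries, so their values are not independent. In the test for any difference between the 3 groups, limma's moderated F with Benjamini-Hochberg adjustment, 0 of the 32 passed and the lowest adjusted p was 0.371, with 0.00631% of all tested genes called. At an unadjusted p under 0.05 there were 4 members, Fam183b, Rsph4a, Foxj1 and Drc1, and 12.6% of all tested genes.

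**Figure D4:**
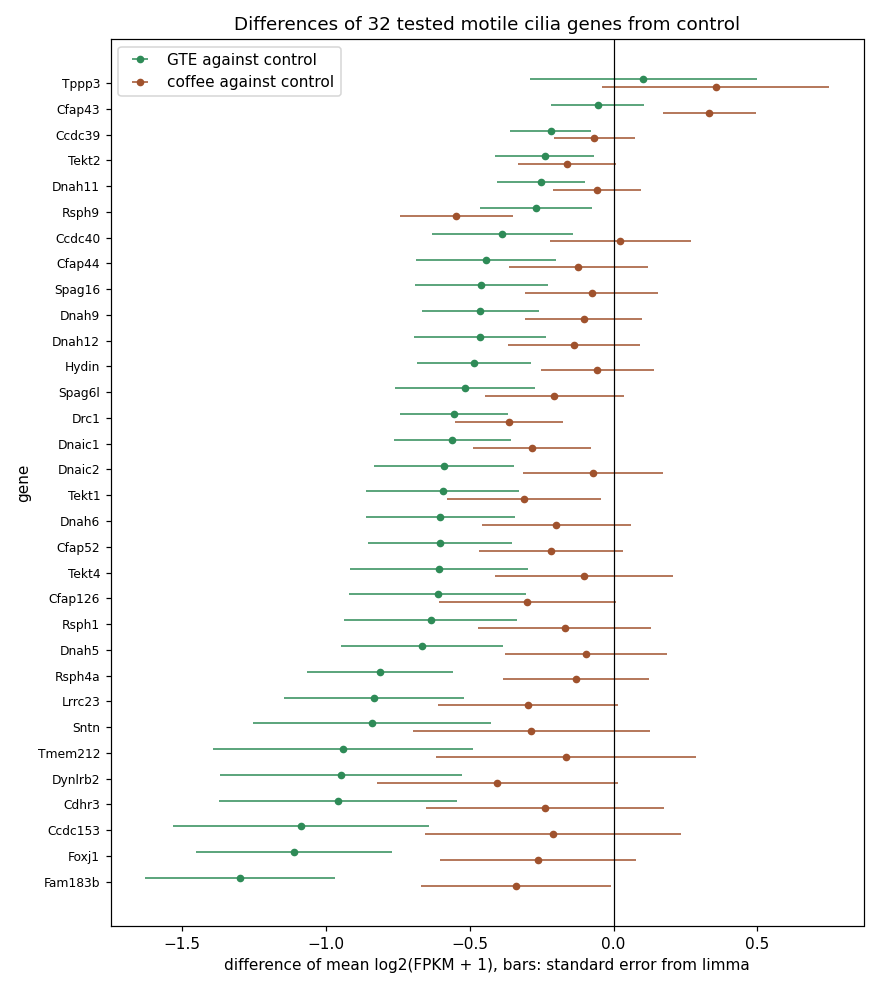
Difference of mean log2(FPKM + 1) from control for the 32 tested motile cilia genes, with GTE in green and coffee in brown; bars are standard errors from limma, and genes are ordered by the GTE difference. GTE differences lie below 0 for 31 genes, from -1.30 for Fam183b, and coffee differences for 29, and no gene passed the adjusted threshold.

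Other genes of the same machinery, from lists of related genes, were also lower in most cases in GTE against control, and none of them passed in limma with Benjamini-Hochberg adjustment. In a list of 46 further motile cilia genes, 37 were tested and 33 were lower in GTE, with a median log2 difference of -0.39 and 12 (32.4%) at an unadjusted p under 0.05, all lower, against 4.3% of all tested genes (lowest adjusted p = 0.552). Among the 4 with the highest levels, Odf3b differed by -0.63 ± 0.27, Nme5 by -0.57 ± 0.26, Dnal1, a dynein light chain, by -0.20 ± 0.13 and Rsph3b, a spoke protein, by -0.039 ± 0.095. All 13 tested factors of dynein arm docking and assembly were lower, with a median of -0.26 and 4 (30.8%) at an unadjusted p under 0.05 (lowest adjusted p = 0.559). These 4 were Spag1 (-0.37), Ccdc151 (-0.50), Dnaaf3 (-0.37) and Dnaaf1 (-0.53). Of 9 further dynein heavy chains 2 were tested, Dnah10 (-0.51) and Dnah3 (-0.47). In the list of primary cilium and transport genes, 15 of 20 were lower with a median of -0.061 and none at an unadjusted p under 0.05. Ift20, the highest of these transport genes, lay between 24.3 and 35.6 FPKM. In coffee against control, 28 of the 37 further motile cilia genes were lower (median -0.10), with 2 (5.41%) at an unadjusted p under 0.05, both lower, where 10.8% of all tested genes were lower. Also lower in coffee were 12 of the 13 docking and assembly factors (median -0.16) and 19 of the 20 primary cilium genes (median -0.13).

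Of 14 listed regulators that act when a cell makes its many cilia, 7 were tested and 4 of these were lower in GTE (median -0.044). The median correlation of these 7 with the mean of the motile cilia genes was 0.269. It was below 0 for 3 of them and above 0.9 for 0. Among those not tested, Mcidas, Gmnc and Foxn4, and Cdc20b, whose locus is known for multiciliated cell precursors, were at 0.133 FPKM or less in every library. Rfx3, an RFX factor of ciliated cells, lay between 1.06 and 1.74 FPKM and Rfx2 between 2.55 and 4.06 FPKM. Myb, also a gene of dividing blood precursors, was the 1 regulator at an unadjusted p under 0.05, and it was higher in GTE (0.92 ± 0.28; limma with Benjamini-Hochberg adjustment, adjusted p = 0.543). A list of 7 sperm flagellum genes was near the floor, with a summed level of 0.219 to 1.56 FPKM per library.

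Markers of the mucosa varied with the motile cilia genes in part. Of 17 genes of secretory middle ear and airway epithelium 13 were tested, and 12 of these were lower in GTE than in control, with a median log2 difference of -0.63 and 1, Sec14l3 (-1.26 ± 0.35), at an unadjusted p under 0.05 (lowest adjusted p = 0.543, limma with Benjamini-Hochberg adjustment). The summed level of the 17 was 1405 to 5648 FPKM in control, 1818 to 3090 FPKM in coffee and 1141 to 2727 FPKM in GTE. Bpifa1, a secreted protein of airway epithelium, read 1279.6, 791, 3958 and 922 FPKM in control, 889, 980.5, 1927 and 491 in coffee and 461, 1739, 665 and 1092 in GTE. Control 3 was highest for Bpifa1 as for most motile cilia genes, but GTE 2 was above 3 of the controls. Wfdc2, of the same epithelium, had its highest value in control 3 too (298.4 FPKM), with GTE 2 second (143.8 FPKM). Scgb1a1 and Muc5ac, which mark club and goblet cells of the lower airway, were at 0.341 FPKM or less in every library. Their part in the differences of the motile cilia genes was not tested.

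In the other marker lists no gene passed in any comparison (limma with Benjamini-Hochberg adjustment), and their levels are given as values. General epithelial genes (8 measured) had summed levels between 192.2 and 363.9 FPKM in control, 109.6 and 196.8 FPKM in coffee, and 123.3 and 316.7 FPKM in GTE, with 5 of 7 tested genes lower in GTE and 7 of 7 lower in coffee than in control. The basal keratins Krt5 and Krt14 were high in control 3 (19.5 and 29.9 FPKM) and GTE 2 (24.4 and 39.1 FPKM) and at or under 3.22 FPKM elsewhere. Choroid plexus genes (9 measured), whose tissue also carries motile cilia, had summed levels between 37.1 and 57.6 FPKM in control, 22.3 and 49.7 FPKM in coffee, and 19.7 and 45.9 FPKM in GTE, with Folr1, Slc4a5 and Prlr under 1 FPKM in every library. Ttr, their highest gene, was at 12.6 FPKM in control 3, the lowest control value, where the motile cilia genes were highest. Hair cell genes were lower in GTE for 11 of 13 (median -0.17, summed level 105.6 to 138.7 FPKM in control and 77.4 to 114.6 in GTE), and 10 of 13 were lower in coffee. Myeloid marrow genes were higher in GTE for 11 of 12 (median 0.38) and in coffee for 12 of 12 (median 0.76). The summed marrow level was highest in GTE 1 (32368 FPKM), coffee 1 (27925), coffee 3 (24198) and coffee 4 (21819). Of these, GTE 1, coffee 1 and coffee 4 were among the 5 libraries with the lowest motile cilia levels, while coffee 3 had the third highest, and GTE 3, the lowest of all, had a summed marrow level of 12337 FPKM, within the control range. The part of these lists in the results was not tested.

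**Figure D5:**
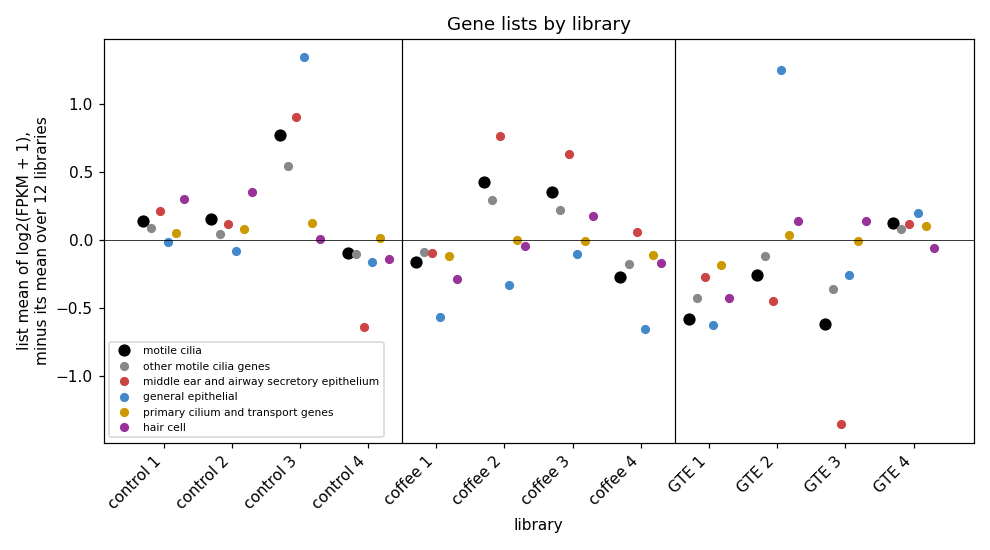
Mean log2(FPKM + 1) of 6 gene lists in each library, minus the mean of that list over the 12 libraries; lists are set side by side within a library and vertical lines separate the groups. The motile cilia genes (black) and the further motile cilia genes (grey) are highest in control 3 and lowest in GTE 1 and GTE 3, while general epithelial genes are high in control 3 and GTE 2.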

How the data were processed

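The deposited values are FPKM per Ensembl gene and library, computed by the authors; replicates were not pooled. Per the submitters' processing notes, Trimmomatic, HISAT2, Cufflinks and HTSeq were used with mouse build mm10; per the labels' protocols, Trizol RNA went into stranded mRNA libraries (TruSeq). Tool versions, annotation release, strand setting and filters: not given in the sources used here. No 2 files held identical values. A symbol was matched for 34459 of 34538 genes. FPKM steps gave whole fragments within 0.01 for 31897 genes at GENCODE M21 exon lengths and for 2641 at another length. Of the members, 10 share exon bases with a gene on the opposite strand (0.539% to 20.8%), and at most 0.391% of the 50-base stretches of a member occur in another gene.

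Groups came from the sample titles. limma 3.58.1 in R 4.3.3 was fitted on log2(FPKM + 1), without further scaling, with 3 group means over 12 libraries, a mean-variance trend and two-sided tests. The 15854 genes that reached 1 FPKM in 4 or more libraries were tested, with Benjamini-Hochberg adjustment per comparison and a threshold of 0.05. The procedure was tested on simulated data. Exact permutation tests of single genes run over 70 arrangements, and 36 were made, unadjusted. All members are named; values per library are given for the 10 highest, Foxj1 and the 2 with the smallest p in each comparison. Of the lists, up to 4 of the highest and chosen markers are named; the choice of markers followed their values. The members and lists were chosen with earlier results of these data known. Figures were drawn with matplotlib 3.10.9 in Python 3.11.15.

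Alternatives were pseudocounts of 0.1 and 0.5, no filter, a mean of at least 5 FPKM, quantile and upper quartile scaling, only the 8 libraries compared, the replicate number as a block, sample weights, voom on recovered fragments, and fits without single libraries or without coffee 1, coffee 4 and GTE 1, the 3 richest in marrow transcripts by mean log2. A fit without coffee 1, coffee 3 and GTE 1, the 3 richest by summed FPKM, was chosen after seeing the data. Same-numbered libraries deviated with correlations from -0.383 to 0.550 and the labels tie no numbers across groups, so the numbers were not taken as pairs. Listed genes not matched by symbol (Dyx1c1, Pih1d3, Tnp1, Prm2 and Akap4) were not analysed here.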

Additional observations from a re-analysis of the deposited data

Results flagged for a closer look

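A check for a library far from the other 3 of its group was run on 141 gene and group combinations and marked 13; chance marks about 1 in 20. In 12 of the 13, control 3 was the high library. Among the motile cilia genes it read 31.4 FPKM for Foxj1 (other controls 11.2 to 14.4), 32.5 for Dynlrb2 (13.9 to 15.8), 25.5 for Ccdc153 (10.9 to 12.3), 13.3 for Lrrc23 (5.87 to 6.45) and 12.2 for Cfap126 (5.91 to 6.33). The same held at lower levels for Cfap44 (4.96 FPKM, against 2.54 to 2.66), Dnah12 (2.57, against 0.999 to 1.14) and Spag16 (2.36, against 0.851 to 1.02), and for Nme5 of the further motile cilia genes (11.8, against 5.61 to 6.32). Control 3 was high as well for the epithelial genes Epcam (92.1 FPKM, against 62.5 to 66.7), Wfdc2 (298.4, against 59.6 to 82.2) and Bpifa1 (3958, against 791.4 to 1279.6). The last mark was Dnah2 in GTE 4, at 0.568 FPKM against 0.364 to 0.382 in the other GTE libraries.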

How the results depend on the processing

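Over the alternatives tried, 0 members passed in GTE against control in any. Sample weights called 1 member in coffee against control (Rsph9) and 1 in GTE against coffee (Cfap43, -0.54, limma with Benjamini-Hochberg adjustment, adjusted p = 0.0496). They also called 1 in the test of any difference, and in every other alternative the count was 0. Fits without 1 library each called 0 members. The alternatives called 0 to 2437 of all genes in coffee against control and 0 to 365 in GTE against coffee. Single calls among the members are to be read beside these totals. For the test of any difference the total over all genes was not counted. The median log2 difference of the members ranged from -0.92 (voom) to -0.39 for GTE against control, from -0.28 to 0.15 for coffee against control and from -0.64 to -0.27 for GTE against coffee. Members at an unadjusted p under 0.05 in GTE against control numbered 4 to 25, with 6 of 12 at a mean of at least 5 FPKM. The replicate block called 0 members, with 11 at an unadjusted p under 0.05 in GTE against control and 6 in GTE against coffee, and changed no direction. In GTE against control, directions were followed for the members with values given per library. They turned for Tppp3 (-0.17 without control 4, -0.033 without GTE 4, and up to 0.50 without control 2) and Cfap43 (0.023 without control 3, 0.063 without GTE 3, and down to -0.22 without GTE 1). In coffee against control only Rsph9, Cfap43, Foxj1 and Fam183b were followed singly. Directions turned for Foxj1 (0.043 without control 3, down to -0.43 without control 4, and 0.14 without coffee 1, coffee 4 and GTE 1) and Fam183b (0.14 without those 3). Over all 32 tested members, 29 were lower in coffee in the main fit, 11 without control 3 and 4 without those 3 libraries. The cause was not tested. The lowest recovered counts were 12 fragments for Tekt2 and, among the higher genes in GTE 3, 34 for Fam183b, 48 for Tmem212 and 60 for Dynlrb2; counting error was not set against the spread between libraries.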

Other observations

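Bpifb1, a secreted protein of mucosal glands, was nearly absent from GTE 2 and GTE 3, at 0.135 and 0.0722 FPKM (12 and 6 fragments), but stood between 15.7 and 577.4 FPKM in the other 10 libraries, whichever their group. It and the genes most like it were singled out after their values were seen. By correlation with Bpifb1 across the 12 libraries the nearest genes with a regular symbol were Dmbt1 (0.984), a mucin-like protein of epithelia, Lipf (0.972), a lipase known from stomach, Gp2 (0.927), Tff2 (0.893), a trefoil peptide of mucous glands, and Lyz1 (0.857), a lysozyme. Lipf read 31.5 to 1113 FPKM in the 10 libraries and 0.115 and 0.0617 FPKM in GTE 2 and GTE 3, and Dmbt1 8.70 to 242.2 FPKM against 0.0288 and 0.0555 FPKM. Tff2 (0.695 and 0.596 FPKM), Gp2 (0.386 and 0.261) and Lyz1 (1.45 and 1.83) were likewise lower in GTE 2 and GTE 3 than in each of the other 10. The motile cilia genes did not share this break: their median ratio to the control median was 0.437 in GTE 1, where Bpifb1 stood at 268.7 FPKM, and 0.454 in GTE 3. No test was made of this pattern.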
